A study of Mus musculus with 12 samples.

Results

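The Ly6 surface proteins Ly6a, Ly6c1, Ly6c2 and Ly6e are 4 of the 13780 genes in a count table of mouse CD8+ T cells, the lymphocytes that kill infected and malignant cells, and were taken as the rows whose gene symbol equals one of these names. The table held 12 RNA-seq libraries in 3 groups of 4. All cells came from spleens of wild-type C57BL/6J mice aged 8-12 weeks and were purified with magnetic beads that bind CD8. Naïve cells were frozen straight after purification and were not sorted further for a naïve surface marker. Media cells were activated for 72 h with beads coated with antibodies to CD3 and CD28, in medium with 10 U/ml IL-2, a growth factor for T cells. Lactate cells were activated for the same 72 h in the same way with 40 mM sodium lactate added. The control was plain media without added sodium chloride, so that lactate cannot be told apart from the added sodium and osmolarity in these libraries. The 8 activated libraries came from 5 donor animals, of which 3 gave a media and a lactate library. Each library held between 14726904 and 21478137 counted reads.

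Ly6 proteins are small, cysteine-rich proteins with a three-finger fold that sit on the outer face of the cell membrane through a glycosylphosphatidylinositol (GPI) anchor. Ly6a (Sca-1) marks blood stem cells and is also carried by activated T cells. Ly6c1 and Ly6c2 encode the Ly6C antigen, which is used in flow cytometry to sort monocyte subsets and memory from naïve CD8+ T cells. Ly6e (TSA-1, also Sca-2) is found on immature thymocytes and many other cells and limits the entry of coronaviruses. Interferons are known inducers of several Ly6 genes, Ly6a in particular.

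All 4 genes lie in a cluster on mouse chromosome 15 (GRCm38), spread over 156920 bases. Ly6e spans chr15:74955051-74959905 on the plus strand. The others are on the minus strand, Ly6a at chr15:74994877-74998031, Ly6c1 at chr15:75044018-75048830 and Ly6c2 at chr15:75108158-75111970. The only other protein-coding gene annotated between them is Ly6i, which has no row in the table. None of their exons overlaps an exon of another annotated gene.

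The coding sequences of Ly6c1 and Ly6c2 are 393 bases long and identical at 384 positions (97.7%). The longest stretch in which they do not differ is 188 bases, longer than the 71-base reads, and is shown because a read that lies within it cannot be assigned to either gene (GENCODE release M21, coding strand).
Shared Ly6c1 and Ly6c2 coding stretch: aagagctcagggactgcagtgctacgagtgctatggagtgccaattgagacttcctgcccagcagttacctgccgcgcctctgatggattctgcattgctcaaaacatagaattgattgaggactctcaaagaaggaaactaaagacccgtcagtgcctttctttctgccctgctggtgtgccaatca

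Ly6a matched Ly6c1 at 83.7% of aligned coding bases and Ly6c2 at 83.5%, whereas Ly6e matched the other members at 58.4% to 59.9%. Of all 71-base words in the transcripts of each gene, 21.2% of those of Ly6c1 also occurred in Ly6a or Ly6c2, 10.1% of those of Ly6c2 in Ly6c1, and 8.16% of those of Ly6a in Ly6c1 or Ly6i. No such word of Ly6e occurred in another gene. Only uniquely mapped reads had been counted, so the levels of Ly6c1, Ly6c2 and Ly6a are uncertain by the reads lost from the shared stretches, which are the same in each library.

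Although their coding sequences are nearly the same, the sequences before the start of Ly6c1 and Ly6c2 differ more. They are shown because the libraries gave very different levels of both genes. The 250 bases upstream of the RefSeq gene start (GRCm38.p6, minus strand) aligned over 216 positions, of which 164 (75.9%) were identical. These are in capitals, and lower case marks bases that differ or lie outside the alignment. Ly6c1 is chr15:75048838-75049087 and Ly6c2 is chr15:75111972-75112221.
Ly6c1: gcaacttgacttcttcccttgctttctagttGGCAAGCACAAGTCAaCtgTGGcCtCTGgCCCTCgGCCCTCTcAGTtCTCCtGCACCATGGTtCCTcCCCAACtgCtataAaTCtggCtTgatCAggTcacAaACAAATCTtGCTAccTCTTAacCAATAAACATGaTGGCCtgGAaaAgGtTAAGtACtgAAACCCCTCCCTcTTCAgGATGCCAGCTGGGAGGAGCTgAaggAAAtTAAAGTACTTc
Ly6c2: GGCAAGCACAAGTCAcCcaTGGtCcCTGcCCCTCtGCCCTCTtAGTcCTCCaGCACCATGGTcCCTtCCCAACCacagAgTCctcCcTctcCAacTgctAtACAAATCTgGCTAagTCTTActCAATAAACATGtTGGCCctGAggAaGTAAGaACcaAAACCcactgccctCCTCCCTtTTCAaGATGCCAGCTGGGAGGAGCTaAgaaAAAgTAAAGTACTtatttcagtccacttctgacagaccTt

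Both strands of these windows were searched for 3 motifs. The gamma-activated site TTCNNNGAA, bound by STAT proteins, occurred in 7.02% of 32851 windows of the same length and in neither of these. The interferon-stimulated response element, sought as GAAA, any 2 bases and again GAAA, occurred in 2.98% of windows and in neither of these. The TATA box letters TATAAA occurred in 12.4% of windows, once in Ly6c1, at -143 from the gene start, and not in Ly6c2.

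Levels are given as CPM, read counts relative to the size of the library after TMM scaling between libraries, and changes as log2 fold changes with their standard error (SE) from a quasi-likelihood model in edgeR. A gene was called, or said to rise or fall, where its p adjusted over the 13767 genes tested was at most 0.01. An exact permutation test, two-sided, over the 70 ways to split 8 libraries into groups of 4 stands beside it, and its smallest possible p is 0.0286. By the study's own description, the libraries of each condition came from independent donor animals. The labels tag donors for the activated libraries only.

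**Figure D1:**
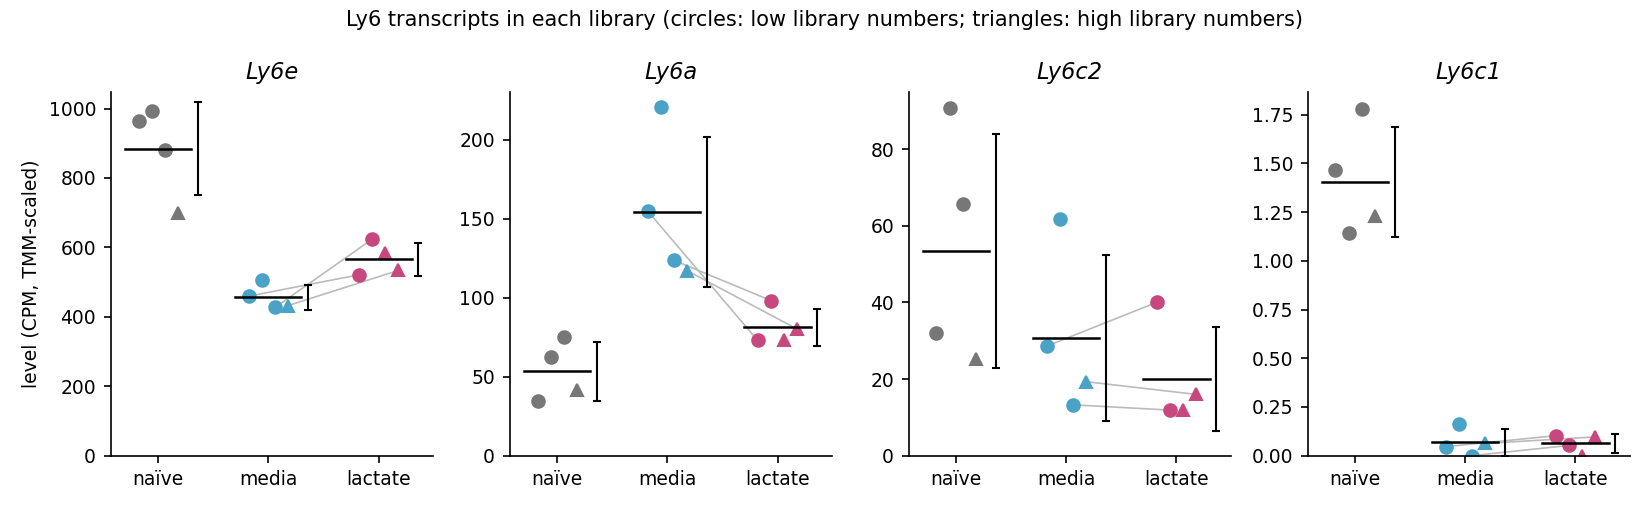
Level of Ly6e, Ly6a, Ly6c2 and Ly6c1 in each library (CPM, linear axes from 0). Points are libraries, black lines are means, bars are ± 1 SD (cut at 0 for Ly6c1) and grey lines join media and lactate libraries of 1 donor. Ly6a was highest in media, between 117 and 221 CPM, and Ly6e was highest in naïve cells, between 698 and 994 CPM.

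Compared per length of gene, as TPM, a length-corrected level, over the union of the exons, Ly6e was the most abundant member in naïve cells at 795 ± 98.1 TPM (SD, n = 4). This was rank 148 of the 13780 genes by mean TPM. Ly6a followed at 151 ± 50.1 TPM, then Ly6c2 at 65.5 ± 35.4 TPM and Ly6c1 at 2.86 ± 0.587 TPM. Ly6a and Ly6c2 were neighbours whose ranges met, from 98.9 to 212 TPM and from 33.0 to 108 TPM, whereas Ly6e stood above and Ly6c1 below all other values.

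In media the order at the top was no longer resolved. Ly6a averaged 445 ± 144 TPM, with libraries from 320.1 to 642 TPM, and Ly6e averaged 418 ± 40.0 TPM, with libraries from 377 to 468 TPM. Ly6a thereby took rank 278 and Ly6e rank 298 of all genes. With lactate the ranges were apart again, with Ly6e at 471 ± 43.7 TPM and Ly6a at 213 ± 34.7 TPM. Ly6c2 had 39.1 ± 27.9 TPM in media and 23.3 ± 16.9 TPM in lactate.

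The order between genes depended on the length used. With the first listed transcript of each gene, of 819 bases for Ly6a, 822 for Ly6c2, 844 for Ly6c1 and 2281 for Ly6e, Ly6a and Ly6c2 were level in naïve cells at 221 ± 73.7 and 219 ± 118 TPM. The Ly6a and Ly6e means in media were then 655 ± 211 and 694 ± 66.4 TPM. The summed level of all 4 genes over exon unions was 1014 ± 141 TPM in naïve, 902 ± 210.2 TPM in media and 708 ± 72.4 TPM in lactate libraries. Ly6a made up 9.74% to 19.5% of this sum in naïve libraries, 44.4% to 54.0% in media libraries and 27.8% to 32.5% in lactate libraries.

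Activation in media, set against naïve cells, addresses how the transcripts of these surface proteins move when CD8+ T cells are stimulated. Ly6a rose 2.88-fold and Ly6e fell 1.94-fold, from a mean of 884 to 456 CPM. Ly6c2 varied too much between libraries to give a call, and Ly6c1, already scarce, was close to undetected after activation. Of all genes tested, 57.5% changed in this comparison, 28.5% upward and 29% downward, so that a change of a single gene was common. CPM is a share of the reads of a library, so a lower value does not show a lower amount per cell. Since RNA was taken from whole cell preparations, fewer cells of a type, less RNA of a gene per cell and more RNA of other genes cannot be told apart.

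Ly6a, the stem cell antigen of activated lymphocytes, measured 34.8, 62.5, 75.1 and 41.3 CPM in naïve replicates 1 to 4. In media replicates 1 to 4 it measured 155, 221, 124 and 117 CPM. Every media library lay above every naïve library. The log2 fold change was 1.53 (SE 0.25), with an adjusted p of 0.000166 in edgeR and an exact permutation p of 0.0286.

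Ly6e, the thymic shared antigen, had 965, 994, 880.4 and 698 CPM in naïve replicates 1 to 4 and 459, 505, 427 and 433 CPM in media replicates 1 to 4. The groups did not overlap, and the media libraries lay close together. The log2 fold change was -0.96 (SE 0.12), with an adjusted p of 1.29e-05 in edgeR. Groups that do not overlap were found for 61.2% of all genes tested in this comparison, higher in media for 30.7% and lower for 30.5%.

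Ly6c2, the more abundant of the genes for Ly6C, had 31.9, 90.7, 65.6 and 25.3 CPM in naïve replicates 1 to 4 and 28.6, 61.8, 13.3 and 19.3 CPM in media replicates 1 to 4. The groups overlapped over most of their range, and their means differed by less than the SD of the naïve group (53.4 ± 30.5 CPM against 30.7 ± 21.7 CPM). The log2 fold change was -0.79 (SE 0.55), with an adjusted p of 0.216 in edgeR.

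Ly6c1 was counted 26, 19, 33 and 22 times in naïve replicates 1 to 4, 1, 3, 0 and 1 times in media replicates 1 to 4, and 2, 1, 0 and 2 times in lactate replicates 1 to 4. In naïve cells this was 1.40 ± 0.284 CPM. No activated library held more than 3 counts. The gene passed the filter of 1 CPM in 3 libraries only through the naïve group, so it had to differ, and its call supports nothing. Summed over libraries, 100 counts in naïve stood against 5 in media, a ratio scaled to depth of 20.9 (exact Clopper-Pearson 95% interval 8.65 to 65.7, counting error only), and against 5 in lactate, a ratio of 20.8 (8.61 to 65.3).

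The naïve libraries also held RNA of other blood cells. Markers of CD8+ T cells were abundant in each group, with the 6 genes Cd8a, Cd8b1, Cd3d, Cd3e, Cd3g and Cd2 summing to between 1755 and 3885 CPM in naïve, 2975 and 3679 CPM in media and 2356 and 2941 CPM in lactate libraries. The 9 tested of 10 monocyte and granulocyte markers summed to between 539 and 1639 CPM in naïve libraries, at most 1.31 CPM in media and at most 0.666 CPM in lactate libraries, with S100a8 and S100a9 at 0 in all activated libraries. The 6 B cell markers summed to between 486 and 1178 CPM in naïve, 9.14 and 16.7 CPM in media and 6.10 and 7.86 CPM in lactate libraries. For 5 dendritic cell markers the ranges were 61.6 to 146 CPM, 0.279 to 0.601 CPM and 0.314 to 2.82 CPM, with Siglech and Xcr1 at 0 in all activated libraries. For 4 tested of 5 red cell genes they were 84.1 to 3369 CPM, 0 to 0.231 CPM and 0.0708 to 1.90 CPM. In naïve, media and lactate libraries, Cd4, the CD4+ T cell marker, lay at 11.15 to 27.1, 0.251 to 0.390 and 0.256 to 0.990 CPM. For Pecam1, 1 tested of 5 endothelial markers, the ranges were 157 to 205, 41.1 to 73.5 and 26.1 to 31.5 CPM. The remaining marker sums did not drop in this way. In naïve, media and lactate libraries, 4 plasma cell markers summed to 184 to 483, 142 to 197 and 277 to 325 CPM. For 4 NK cell markers the sums were 38.7 to 233, 215 to 259 and 311 to 361 CPM, although 3 of the 4 fell against naïve. For 2 tested of 4 stem and progenitor markers they were 30.1 to 47.6, 62.4 to 99.9 and 9.97 to 32.3 CPM. Of these, Flt3 averaged 22.3, 0.186 and 0.0639 CPM and Kit 13.7, 83.7 and 16.1 CPM. Monocytes, dendritic cells and other blood cells are known to carry Ly6C, and the part of these cells in the naïve levels of Ly6c1, Ly6c2, Ly6e and Ly6a was not tested.

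**Figure D2:**
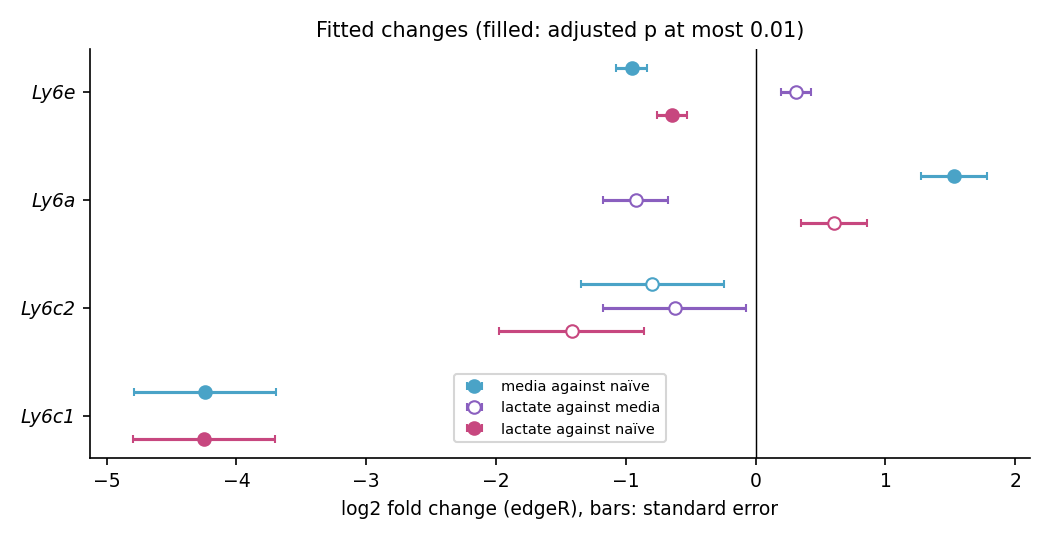
Log2 fold changes from edgeR with their standard error for each member in 3 comparisons. Filled points have an adjusted p of at most 0.01, and no change of Ly6c1 between lactate and media is drawn because both groups are at or below 3 counts a library. Ly6a lay at 1.53 for media against naïve and at -0.92 for lactate against media, and Ly6e at -0.96 and 0.31.

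The comparison of lactate with media asks how the same stimulus moved these transcripts when lactate was present. Ly6a was lower with lactate in every library, at 81.2 ± 11.8 CPM against 154 ± 47.5 CPM, and Ly6e was higher in every library, at 565 ± 47.0 CPM against 456 ± 35.8 CPM. Neither reached an adjusted p of 0.01 in edgeR, at 0.0113 for Ly6a and 0.051 for Ly6e, and neither did Ly6c2. Of all genes tested, 25.1% passed that threshold, 13.9% upward and 11.1% downward. Groups that did not overlap were found for 44.7%, higher with lactate for 23.2% and lower for 21.5%. The unadjusted p was under 0.05 for 2 members, Ly6a (0.00293) and Ly6e (0.0203), and for 48.2% of all genes tested. DESeq2 and the likelihood ratio test of edgeR called 1 member, Ly6a, and limma voom called 0.

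Ly6a had 72.9, 98.2, 73.5 and 80.1 CPM in lactate replicates 1 to 4, all below the lowest media library at 117 CPM. The log2 fold change was -0.92 (SE 0.25), with an exact permutation p of 0.0286. In the 3 donors that gave both libraries, the log2 difference of lactate from media was -1.09, -0.33 and -0.55. With the donor as a block in the 8 activated libraries, the log2 fold change was -0.65 with an adjusted p of 0.00816 in edgeR, which is below 0.01. In a fit of all 12 libraries that included the donor it was -0.66 with an adjusted p of 0.156. Media replicate 2, at 221 CPM, had no lactate partner, and without it the log2 fold change was -0.70 with an adjusted p of 0.0426.

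Ly6e had 521, 623, 583 and 534 CPM in lactate replicates 1 to 4, each above the highest media library at 505 CPM. The log2 fold change was 0.31 (SE 0.12), with an adjusted p of 0.051 in edgeR and an exact permutation p of 0.0286. Within the 3 donors the log2 difference was 0.18, 0.55 and 0.30, higher with lactate in 3 of 3.

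Ly6c2 had 40.0, 11.9, 11.8 and 16.0 CPM in lactate replicates 1 to 4. Lactate replicate 1 stood apart from the other lactate libraries, and the groups overlapped. The log2 fold change was -0.62 (SE 0.55), with an adjusted p of 0.402 in edgeR and an exact permutation p of 0.4. Within the 3 donors the log2 difference was 0.48, -0.16 and -0.27, and with the donor as a block in the 8 activated libraries the sign turned, at 0.05 with an adjusted p of 0.83. For Ly6c1 a difference between lactate and media was not detectable at this depth.

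Lactate cells were also set against naïve cells. This comparison shares the naïve libraries with that of media against naïve, so the values of both are given side by side. Ly6e fell in each, by 0.96 on the log2 scale in media and by 0.65 in lactate (SE 0.12 each, adjusted p 1.29e-05 and 0.000257 in edgeR). For Ly6a the log2 fold change was 1.53 in media and 0.60 in lactate, the latter with an adjusted p of 0.0441 and overlapping groups, since naïve replicate 3 (75.1 CPM) lay above lactate replicates 1 and 3. For Ly6c2 it was -0.79 in media and -1.42 in lactate, the latter with an adjusted p of 0.0348 in edgeR, an exact permutation p of 0.0857 and overlapping groups. Without lactate replicate 1 the Ly6c2 value was -2.01 with an adjusted p of 0.0071, past the threshold. Of all genes tested, 65% changed between lactate and naïve cells, 33% upward and 32% downward, and 67.8% had groups that did not overlap, higher in lactate for 35% and lower for 32.8%.

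The labels number the libraries in 2 series, of low and of high numbers, which hold unequal numbers of each group. The low numbers are naïve 1 to 3, media 1 to 3 and lactate 1 and 2. Within the low and the high series, the log2 difference of media from naïve was 1.56 and 1.5 for Ly6a and -1.03 and -0.69 for Ly6e. That of lactate from media was -0.93 and -0.61 for Ly6a, 0.30 and 0.37 for Ly6e, and -0.39 and -0.49 for Ly6c2. Each of these directions was the same in both series. Naïve replicate 4, the only naïve library with a high number, had the lowest Ly6e of its group. The high series holds 1 naïve, 1 media and 2 lactate libraries, so its differences rest on few libraries. The SE of a difference in effect between the series was 0.19 to 0.20 for Ly6e, 0.53 to 0.57 for Ly6a and 1.13 to 1.2 for Ly6c2. The lack of a call for a member therefore does not show that its effects were equal. An interaction of group and number series in edgeR called no member in any comparison, with adjusted p between 0.2 and 1, and over all genes it called 508 for media against naïve, 0 for lactate against media and 523 for lactate against naïve.

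**Figure D3:**
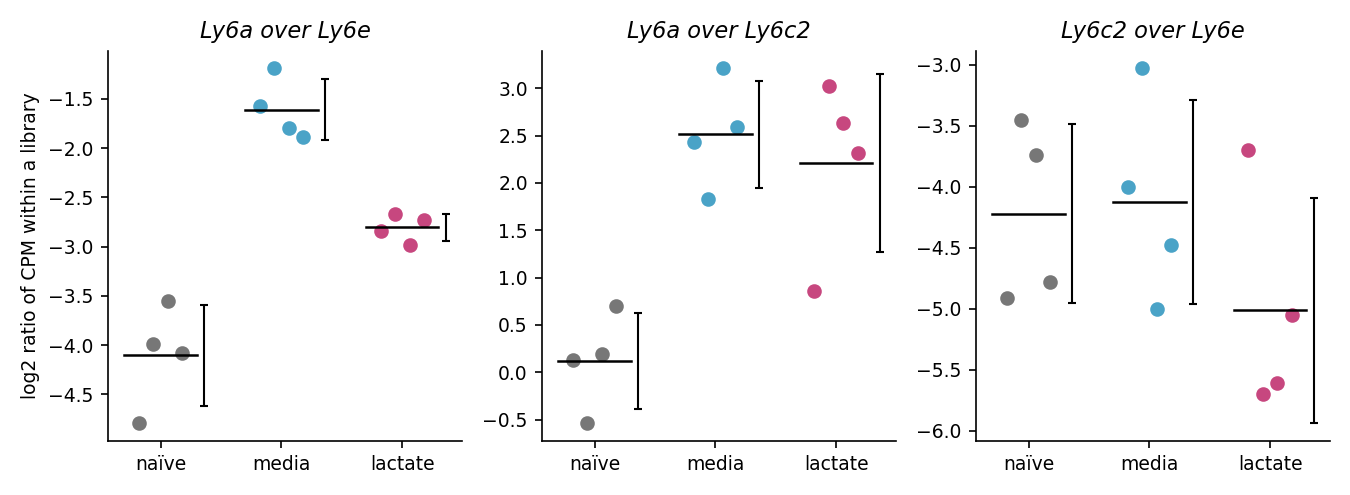
Log2 ratio of CPM of 2 members within each library, which does not depend on how libraries are scaled. Points are libraries, lines are means and bars are ± 1 SD. The ratio of Ly6a to Ly6e separated all 3 groups, at means of -4.10 in naïve, -1.61 in media and -2.81 in lactate.

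Whether the members differ in their response was tested on the log2 ratio of one to another within a library, in 18 tests, 6 pairs by 3 comparisons. The ratio of Ly6a to Ly6e was -4.79, -3.99, -3.55 and -4.08 in naïve replicates 1 to 4, -1.57, -1.19, -1.79 and -1.89 in media and -2.84, -2.67, -2.98 and -2.73 in lactate. No group overlapped another. It was 2.49 higher in media than in naïve cells, 1.2 lower in lactate than in media (difference -1.2) and 1.3 higher in lactate than in naïve cells, each with an exact permutation p of 0.0286, the smallest possible. The adjusted p was 0.0429 over all 18 tests. Since Ly6c1 had to differ, its ratios lower that value, and over the 9 tests without Ly6c1 the adjusted p was 0.0515 (exact permutation). In the 3 donors that gave both libraries, the ratio of Ly6a to Ly6e went from -1.57 in media to -2.84 in lactate, from -1.79 to -2.67 and from -1.89 to -2.73.

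The ratio of Ly6a to Ly6c2 was 2.4 higher in media and 2.09 higher in lactate than in naïve cells, without overlap of the groups (adjusted p 0.0429 for both over 18 tests and 0.0515 over the 9 without Ly6c1, exact permutation). Between lactate and media it differed by -0.31 with overlapping groups (adjusted p 0.666, exact permutation). The ratio of Ly6c2 to Ly6e differed by 0.10 between media and naïve cells, by -0.89 between lactate and media and by -0.79 between lactate and naïve cells, with overlapping groups in each (adjusted p 0.886, 0.275 and 0.257, exact permutation). Across all 12 libraries the Pearson correlation of log2 CPM was -0.72 between Ly6a and Ly6e, 0.52 between Ly6c2 and Ly6e and -0.04 between Ly6a and Ly6c2. Within the 8 activated libraries these were -0.47, -0.23 and 0.55. The points share the 3 groups, so these values describe the libraries only.

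The genes whose log2 CPM across the 12 libraries was most like that of each member were named by Pearson correlation among genes of at least 5 CPM on average. For Ly6a they were Fam71f2 (0.942), Gmppa, which regulates the making of GDP-mannose (0.942), and Rcn1, a calcium-binding protein of the endoplasmic reticulum (0.94). For Ly6e they were the transcription factor Sox4 (0.975), Il18bp, a secreted inhibitor of IL-18 (0.975), and the dipeptidase Pepd (0.966). For Ly6c2 they were the transcription factor Fli1 (0.878), Gpatch11 (0.845) and Usp18, a protease for the interferon-induced modifier ISG15 (0.838), at lower values than for the other members. For Ly6c1 they were Mark2 (0.99), Zfp707 (0.987) and Cdc42se1 (0.985), over libraries of which 8 are near 0. Over the 8 activated libraries alone the nearest genes were others: 1600014C10Rik (0.988), Dennd1c (0.988) and Rab2b (0.985) for Ly6a, Pex7 (0.964), Cmtm6 (0.964) and 1110059G10Rik (0.963) for Ly6e, and Cdc14a (0.939), Zfp709 (0.936) and Zfp41 (0.924) for Ly6c2.

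Of 45 genes listed for the wider family of Ly6 and urokinase receptor (uPAR) proteins, 11 had a row in the table. Apart from the 4 members these were Ly6d, Ly6k, Ly6m, Ly6g5b, Lynx1, Lypd6b and Plaur. Against naïve cells, 1 rose and 6 fell in media, and 0 rose and 8 fell in lactate, which is 63.6% and 72.7% of the list against 57.5% and 65% of all genes. Between lactate and media, 0 rose and 1 fell, 9.09% against 25.1% of all genes. Ly6c1 and Ly6d reached 1 CPM in naïve libraries alone, and Ly6g5b in all 4 naïve libraries and 1 media library. These 3 genes passed the filter through the naïve group, so they had to differ, and the counts against naïve cells support nothing. The rise of Ly6a in media was thus the only upward call in the family in the 3 comparisons.

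**Figure D4:**
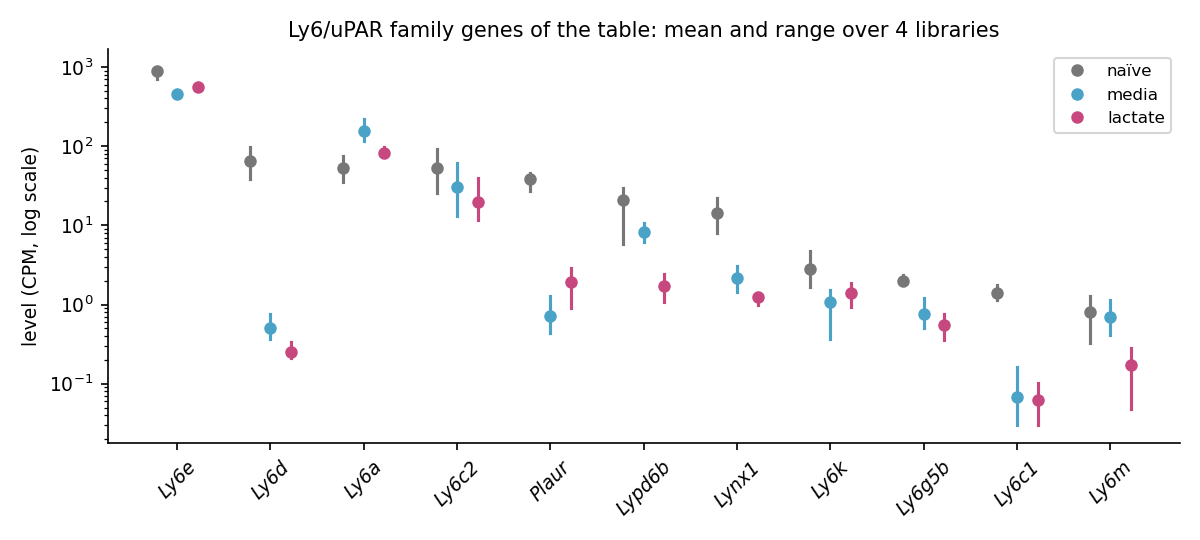
Mean level (points) and range over 4 libraries (lines) of the 11 Ly6 and uPAR family genes in the table, in CPM on a log axis, with a lowest value of 0 drawn at 0.03. Ly6d and Plaur lay at 64.5 and 37.9 CPM in naïve cells and at or below 1.90 CPM on average after activation.

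Ly6d, known from the B cell lineage, averaged 64.5 CPM in naïve, 0.501 CPM in media and 0.254 CPM in lactate libraries, a log2 fold change of -7.01 (SE 0.34) in media and of -7.93 (SE 0.36) in lactate. The summed B cell markers were lower in the same libraries. Plaur, the urokinase receptor that myeloid cells carry, averaged 37.9, 0.707 and 1.90 CPM, and the summed monocyte and granulocyte markers were lower in the same libraries. The part of these cells in either gene was not tested. Lynx1, a modulator of acetylcholine receptors, fell from 14.2 CPM to 2.16 CPM in media and 1.24 CPM in lactate. Lypd6b averaged 20.96 CPM in naïve and 8.32 CPM in media, which did not pass the test (adjusted p 0.0119 in edgeR), and fell to 1.71 CPM in lactate (log2 fold change against media -2.29, SE 0.45, adjusted p 0.00187 in edgeR). Ly6g5b averaged 1.98 CPM in naïve, 0.756 CPM in media and 0.557 CPM in lactate libraries. Ly6m had 0.800, 0.703 and 0.174 CPM and Ly6k 2.82, 1.08 and 1.39 CPM in naïve, media and lactate cells, of which the lactate level of Ly6m against naïve alone passed the test. Ly6m reached 1 CPM only in naïve replicates 2 and 4 and media replicate 4, and had at most 0.283 CPM in lactate. The filter thus favoured a lower level in lactate, and this call supports nothing.

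Within 1 Mb on either side of the cluster lay 26 other tested genes, the neighbouring family genes included. In media against naïve cells 4 rose and 8 fell (46.2%, against 57.5% of all genes). The falls include Ly6d and Gm39556, the latter at 2.89 CPM in naïve and 0.565 CPM in media. Nrbp2, among the rises, had 0.631 CPM in naïve and 15.9 CPM in media. The filter on low counts favours such changes, so this count was partly fixed in advance. With lactate against media 7 rose and 0 fell (26.9%, against 25.1% of all genes). Ly6a, with a log2 value of -0.92, and Ly6e, with 0.31, lie within the same stretch of chromosome.

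The genes that attach the GPI anchor were read beside the members, since Ly6 proteins reach the surface only with that anchor. Of 28 tested, 7 rose and 6 fell in media against naïve cells (median log2 fold change 0.06), 4 rose and 2 fell with lactate against media (0.04), and 10 rose and 5 fell in lactate against naïve cells (0.22). This was 46.4%, 21.4% and 53.6% of the list, against 57.5%, 25.1% and 65% of all genes. The medians over all genes were -0.03, -0.0016 and 0.01. Piga, the catalytic subunit of the first step of synthesis, rose from 43.3 to 94.9 CPM in media. Pigk and Gpaa1, subunits of the transamidase that joins the anchor to the protein, were higher with lactate than in media, at 67.2 against 29.6 CPM and 73.5 against 41.2 CPM. Pgap1, which trims the anchor after transfer, was lower, at 13.2 against 24.9 CPM, and Pigv, a mannosyltransferase, at 14.0 against 23.5 CPM.

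Of 16 other genes listed as GPI-anchored surface proteins of lymphocytes, 4 rose and 3 fell in media against naïve cells, 1 rose and 3 fell with lactate against media, and 5 rose and 5 fell in lactate against naïve cells. This was 43.8%, 25% and 62.5% of the list, at or below the 57.5%, 25.1% and 65% of all genes. With lactate, Bst1 fell from 20.5 to 3.50 CPM, the ADP-ribosyltransferase Art2b from 9.66 to 2.05 CPM and Cd52 from 367 to 231 CPM. The gene that rose was H2-Q10, from 20.9 to 41.2 CPM, which encodes a secreted class I molecule and does not belong on the list by its anchor, and neither does the transmembrane receptor Tnfrsf10b. Under upper quartile scaling or total counts, 0 genes of the list rose with lactate. Cd55, an inhibitor of complement, fell from 186 CPM in naïve cells to 14.9 CPM in media and 11.7 CPM in lactate.

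**Figure D5:**
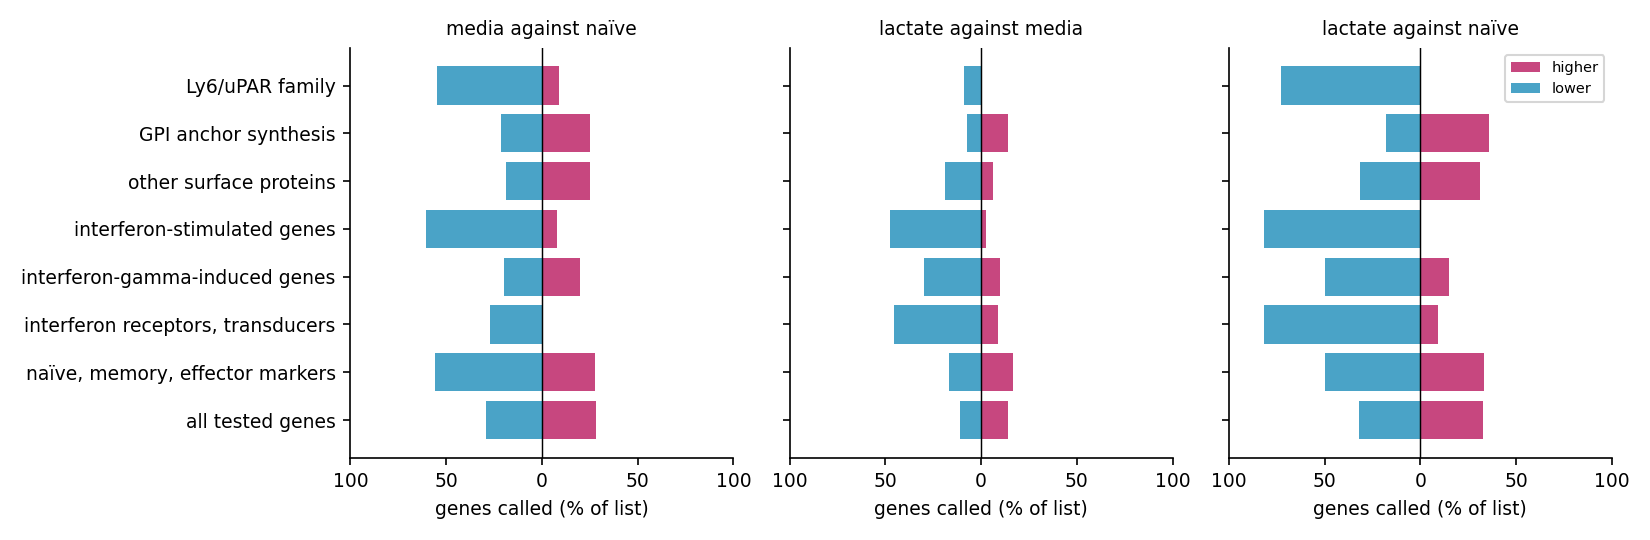
Share of each gene list with an adjusted p of at most 0.01, higher (right) or lower (left), in 3 comparisons, beside the share of all 13767 tested genes. Of the 38 interferon-stimulated genes, 18 were lower with lactate than in media and 1 was higher.

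Interferon genes stood beside the members because interferons induce Ly6 genes. Of 38 interferon-stimulated genes, a list without the members, 3 rose and 23 fell in media against naïve cells (median log2 fold change -1.54), 1 rose and 18 fell with lactate against media (-1.55), and 0 rose and 31 fell in lactate against naïve cells (-2.56). This was 68.4%, 50% and 81.6% of the list, against 57.5%, 25.1% and 65% of all genes. The monocyte, dendritic and B cell markers given above were lower over the same libraries against naïve cells, and their part in the fall of these genes against naïve was not tested. Some listed genes were scarce after activation, such as Ifit3, at 18.7 CPM in naïve and 0.595 CPM in media. Oasl2 had 29.2 CPM in naïve and 0.14 CPM in lactate. The filter on low counts favours a fall of such genes, so the counts against naïve were partly fixed in advance. With lactate, the antiviral GTPase Mx1 fell from 5.73 to 0.904 CPM, the transcription factor Irf7 from 23.2 to 3.78 CPM, Ifi27l2a from 224 to 33.9 CPM and Xaf1 from 16.9 to 2.64 CPM. Beside the list medians of -1.54 for media against naïve, -1.55 for lactate against media and -2.56 for lactate against naïve, the log2 fold change of Ly6a was 1.53, -0.92 and 0.60 and that of Ly6e was -0.96, 0.31 and -0.65. The part of interferon signals in either gene was not tested.

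Of 20 genes induced by interferon-γ, 4 rose and 4 fell in media against naïve cells, 2 rose and 6 fell with lactate against media, and 3 rose and 10 fell in lactate against naïve cells, which is 40%, 40% and 65% of the list against 57.5%, 25.1% and 65% of all genes. Ciita and Cxcl9 averaged 79.5 and 16.2 CPM in naïve libraries and at most 0.56 CPM in either activated group. They passed the filter through the naïve group, so their falls against naïve support nothing. With lactate the GTPase Gbp2 fell from 105 to 28.9 CPM and the peptide transporter Tap1 from 649 to 310.2 CPM, and Socs1, an inhibitor of cytokine signals, rose from 40.9 to 112 CPM. Of 11 tested interferon receptors and signal transducers, a list that also holds Ifng itself, 0 rose and 3 fell in media against naïve cells, 1 rose and 5 fell with lactate against media, and 1 rose and 9 fell in lactate against naïve cells, which is 27.3%, 54.5% and 90.9% of the list against the same shares of all genes. The gene that rose with lactate was Ifng, the cytokine, from 6.15 to 104 CPM, and Ifnar1, a chain of the receptor for type I interferons, fell from 194 to 92.1 CPM.

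Ly6C is read in flow cytometry beside other markers of naïve, memory and effector cells. Of 18 such genes, 5 rose and 10 fell in media against naïve cells, 3 rose and 3 fell with lactate against media, and 6 rose and 9 fell in lactate against naïve cells. This was 83.3%, 33.3% and 83.3% of the list, against 57.5%, 25.1% and 65% of all genes. Under total counts, or a filter of 10 counts in every library, 5 fell with lactate against media. Klrg1 averaged 1.39 CPM in naïve and had at most 0.071 CPM in any activated library. It passed the filter through the naïve group alone, so its change against naïve supports nothing. The cytotoxic protease Gzmb rose from 24.4 CPM in naïve cells to 1445 CPM in media and 4672 CPM in lactate, and the transcription factor Klf2, which holds naïve cells at rest, fell from 1804 to 107 and 27.2 CPM. With lactate against media, the pore protein Prf1 rose from 37.2 to 295 CPM and the transcription factor Eomes from 4.99 to 18.1 CPM, while the chemokine Ccl5 fell from 7.59 to 2.13 CPM. In the same comparison Ly6c2 stood at -0.62 (SE 0.55) and Ly6c1 was at the limit of detection.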

How the data were processed

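RNA-seq (stranded mRNA libraries, 71-base single-end reads) was measured in 12 libraries, 4 each of naïve, media and lactate CD8+ T cells. By the authors' description, reads were aligned to GRCm38 with STAR 2.7.5b, duplicates were removed and unique reads were assigned to Ensembl genes with featureCounts. The strand setting of featureCounts is not given in the sources used here. Media replicate 2 held 4047 counts of Ly6a over 1205 exon bases, so reads with the same start remained in the counts. The deposited table holds raw counts with gene lengths. Groups and replicates came from the sample titles, and donors and number series from the sample descriptions. Donor tags were read separately within each number series. Media and lactate libraries of 1 donor deviated together (correlation across genes 0.374, 0.211 and 0.553).

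Counts were scaled by TMM, a gene was tested if 3 or more libraries reached 1 CPM (13767 of 13780), and 1 quasi-likelihood model with 3 groups was fitted in edgeR 4.0.16 (R 4.3.3) with p-values adjusted by Benjamini-Hochberg across these genes (threshold 0.01). The biological coefficient of variation was 23.5%. SE is the log2 fold change over the square root of F. Ratios and correlations used log2 CPM with a prior count of 2. DESeq2 1.42.0, limma 3.58.1, other scalings, filters, blocks and leaving out each library were alternatives. The script was tested on simulated data. No pair of libraries differed by less than sampling noise. Members and gene lists were chosen with earlier results of these data known. Named genes were the members, the other family genes in the table, and in each list up to 4 called genes per comparison with the largest change and at least 5 CPM in either group, of which a selection is given. Marker genes stand beside results as checks. An item withheld from the text is not reported here. Promoter sequences (RefSeq, GRCm38.p6) were matched for 2 of 4 members, and windows on chromosome 18 were left out of the motif shares.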

Additional observations from a re-analysis of the deposited data

Results flagged for a closer look

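Of the levels of the members tested in each group of 4 libraries, 1 held a library far from the rest. Ly6c2 in lactate measured 40.0 CPM in replicate 1 against 11.8 to 16.0 CPM in the other lactate libraries, a gap of 0.852 of the range of the group. If CPM values are normally distributed, chance gives such a gap in about 1 of 20 groups, and 10 groups were tested. Gaps on the log2 scale, which the fold changes use, were not tested. Media replicate 1, from the same donor, had 28.6 CPM, between the other media libraries.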

How the results depend on the processing

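Media against naïve gave the same calls for Ly6a (log2 fold change 1.3 to 1.66), Ly6e (-1.06 to -0.92) and Ly6c2 (-1.39 to -0.51, not called) under 24 alternatives each. Ly6e kept its direction and stayed short of the threshold with lactate against media under 26 alternatives (0.26 to 0.36, adjusted p 0.0109 to 0.141). Ly6e stayed called with lactate against naïve under 24 (-0.75 to -0.59). A filter of 10 counts in every library drops Ly6c1, whose call against naïve had been fixed by the filter on low counts.

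For Ly6a with lactate against media, at an adjusted p of 0.0113 just short of the threshold, 12 of 26 alternatives gave an adjusted p of at most 0.01, 1 raised the threshold to 0.05, and none of the 26 changed its direction. It was called with the likelihood ratio test (-0.925), DESeq2 (-0.956), DESeq2 size factors in edgeR (-0.956), total counts (-0.961), a filter of 10 counts (-0.932), the 2 groups alone (-0.919), the replicate block by title number (-0.90), the donor block in the 8 activated libraries (-0.65, chosen after the data were seen) and a threshold of 0.05 (-0.925). Leaving out 1 library gave -1.04 to -0.701 (adjusted p 0.00638 to 0.0426), past the threshold without naïve replicate 1, 3 or 4 or media replicate 4. The title numbers do not follow the donors throughout (correlations of 0.374, 0.297, 0.0038 and 0.553), and that block called 3256 genes against 3451 without it. The donor block called 992 genes in 12 libraries and 3654 in the 8 activated ones.

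Ly6c2 with lactate against media turned to 0.0253 and 0.0474 in these donor blocks and ranged from -1.21 (without lactate replicate 1) to -0.03 (without media replicate 2) as libraries were left out. The blocks changed no other call of a member. Against naïve, lactate passed a threshold of 0.05 for Ly6a (0.603) and Ly6c2 (-1.42), and Ly6c2 ranged from -2.01 to -1.13 as libraries were left out, past 0.01 without lactate replicate 1. The ratio of Ly6c2 to Ly6e in media against naïve turned to -0.135, -0.09 and -0.27 without naïve replicate 1, naïve replicate 4 or media replicate 2 (range -0.27 to 0.386), and that of Ly6a to Ly6c2 with lactate turned to 0.141 without lactate replicate 1 (range -0.583 to 0.141). Adjusted over the 9 ratios without Ly6c1, also chosen after the data were seen, the ratio of Ly6a to Ly6e (2.49 in media and 1.3 in lactate against naïve, -1.2 in lactate against media) and of Ly6a to Ly6c2 (2.4 and 2.09 against naïve) had an adjusted p of 0.0515 in place of 0.0429. With a filter of 10 counts, which tests fewer genes, 13 and 20 interferon-stimulated genes fell against naïve in media and lactate. The median of the GPI anchor genes in media turned to -0.0018 with DESeq2 size factors. With lactate against media, 1917 genes were higher and 1534 lower under TMM, and 1702 and 1728 under total counts. The cause of these shifts was not tested. Depth limits Ly6c1 alone among the members.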
